A study of Oryzias melastigma with 6 samples.

Results

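MiR-122-5p, the guide strand of the vertebrate liver microRNA miR-122, was examined in small RNA libraries of the marine medaka *Oryzias melastigma*, a small saltwater fish. Its members were all listed sequences that matched miR-122-5p with a 5′ end shifted by at most 3 nt, at most 2 mismatches and an overlap of at least 17 nt. This gave 9 of the 1571 different sequences listed over 6 libraries. The study profiled microRNAs in 3 organs of sexually mature, breeding fish of both sexes. Each library came from pooled tissue of 1 sex: female liver, male liver, female brain, male brain, ovary and testis, with 1 library each and no treatment named in the labels. The sources used here do not give the number of fish per pool. Each organ has n = 2 libraries, which stand for the 2 sexes or, in the gonads, for ovary and testis.

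MicroRNAs (miRNAs) are short RNAs cut from a hairpin precursor by the nucleases Drosha and Dicer, which leave a duplex of a 5p and a 3p arm with short 3′ overhangs. The arm loaded into an Argonaute protein pairs with messenger RNAs through its seed, bases 2 to 8 from the 5′ end, and lowers their output. Which bases form the seed is set by the 5′ end, whereas the 3′ end can be trimmed or extended without moving it. MiR-122 is made mainly by hepatocytes, the main cell type of the liver. In mammals it is known for its part in cholesterol and fatty acid metabolism, and the messenger RNA of aldolase A is one of its known targets in mice.

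The 9 listed sequences are shown because the comparison of the sexes turns on their ends. Capitals mark the seed, and the sequences are written 5′ to 3′ as DNA letters, as the deposited lists have them.
miR-122-5p form 1, 22 nt: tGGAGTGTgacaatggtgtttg
miR-122-5p form 2, 21 nt: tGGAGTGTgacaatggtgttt
miR-122-5p form 3, 23 nt: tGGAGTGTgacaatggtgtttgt
miR-122-5p form 4, 20 nt: tGGAGTGTgacaatggtgtt
miR-122-5p form 5, 23 nt: tGGAGTGTgacaatggtgtttga
miR-122-5p form 6, 21 nt: gGAGTGTGacaatggtgtttg
miR-122-5p form 7, 23 nt: tGGAGTGTgacaatggtgtttgg
miR-122-5p form 8, 22 nt: gGAGTGTGacaatggtgtttgt
miR-122-5p form 9, 20 nt: gGAGTGTGacaatggtgttt
Forms 1 to 5 and 7 start at the same base and carry the seed GGAGTGT. Forms 6, 8 and 9 start 1 nt further in, which moves the seed by 1 nt to GAGTGTG. Within the overlap with form 1, the 9 forms had 0 mismatches. Among the sequences that were not members, 0 held the seed GGAGTGT at bases 2 to 8, and 0 matched form 1 when up to 4 mismatches were allowed.

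The other arm of the hairpin, miR-122-3p, had 7 listed forms. The 5 shown here are the 3 listed in both livers and the 2 that begin furthest upstream. Capitals again mark bases 2 to 8.
miR-122-3p form 1, 22 nt: aACGCCATtatcacactaaata
miR-122-3p form 2, 21 nt: aACGCCATtatcacactaaat
miR-122-3p form 3, 22 nt: aAACGCCAttatcacactaaat
miR-122-3p form 4, 20 nt: cAAACGCCattatcacacta
miR-122-3p form 6, 21 nt: tCAAACGCcattatcacacta
Form 3 starts 1 nt, form 4 starts 2 nt and form 6 starts 3 nt upstream of form 1. Form 1 of the 5p arm and form 1 of the 3p arm, folded together with RNAduplex, gave a predicted duplex of 16 base pairs at -21.70 kcal/mol. Bases 4 to 20 of the 5p arm were paired, apart from base 11, with bases 1 to 17 of the 3p arm. In that structure each arm had a 3′ overhang of 2 nt. No hairpin or genome sequence was used here, so the position of the locus and whether 3′ bases are encoded in it were not analysed here.

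The deposited values were taken as RPM, reads scaled to the same total in every library, and implied library totals of 18.7 M to 25.5 M reads (M, mega). In the livers, listed sequences assigned to miRNAs made up 1.84% of all reads in females and 1.99% in males. This was a smaller part than in brain (23.1% in females and 21.0% in males). It was close to the gonads (2.36% in ovary and 1.53% in testis). All listed sequences together held 2.51% of reads in female liver, 2.49% in male liver, 24.0% in female brain and 21.7% in male brain. They held 2.95% in ovary and 2.08% in testis. Reads of miRNA sequences that were not listed are in none of these values. Lists ended at 6.03 RPM in female liver, 6.002 in male liver, 8.03 in female brain, 6.03 in male brain, 10.004 in ovary and 10.03 in testis, which corresponds to 112 to 256 reads. For a sequence that is not listed, all that is known is that it lay below the end of the list. Intervals below are for 95% confidence and cover counting error only, since the reads are PCR products without molecular identifiers. In pooled tissue, fewer cells of a type and less RNA per cell cannot be told apart.

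The liver label was compared with miRNAs typical of other tissues. Of 6 neuronal families, 5 were unlisted in both livers, including miR-9 and miR-124, and miR-128-3p stood at 6.46 RPM in female liver and 17.4 RPM in male liver. The summed neuronal families reached 73078 RPM in female brain and 67808 RPM in male brain. The 3 muscle families and both arms of the gonadal miR-202 were unlisted in both livers. Among 6 families of blood cells, 3 were listed in female liver with a sum of 321 RPM and 4 in male liver with a sum of 388 RPM, led by miR-451-5p and miR-144-3p of red blood cells. Of 3 pancreatic families, miR-216-5p was listed, at 52.7 RPM in female liver and 153.9 RPM in male liver, while miR-217-5p and miR-375-3p were not. MiR-216-5p was higher in the other organs. It had 8696 RPM in female brain, 9335 RPM in male brain, 1124 RPM in ovary and 1177 RPM in testis. Which cells gave its reads in the livers was not tested. The 2 endothelial arms of miR-126 summed to 133.7 RPM in female liver and 117 RPM in male liver. The part of these cells in the values below was not tested.

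MiR-122-5p was listed in both liver libraries and in no other library. Its forms summed to 1823 RPM in female liver, or 34446 reads, and to 2011 RPM in male liver, or 37529 reads. The mean was 1917 ± 133.3 RPM (SD, n = 2). It made up 9.93% of miRNA RPM in female liver (Wilson interval 9.83 to 10.03) and 10.1% in male liver (10.001 to 10.19). Of all reads, including those of other small RNA, it held 0.182% in female liver and 0.201% in male liver.

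Among miRNA families, miR-122-5p held rank 3 in female liver and rank 2 in male liver. MiR-194-5p, which is known from liver and gut epithelium, stood above it in both with 7055 RPM in female liver and 6962 RPM in male liver. In female liver let-7-5p, a family of broad tissue range, came just above at 1856 RPM and miR-26-5p just below at 1744 RPM. In male liver miR-26-5p followed at 1831 RPM and let-7-5p at 1571 RPM. The order of let-7-5p, miR-122-5p and miR-26-5p thus differed between the livers, and with 1 library per sex that order has no replicate check.

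In the other organs only bounds can be given. Form 1 had 1097 RPM in female liver and 1268 RPM in male liver. Taking the lower of these, form 1 in liver was at least 136-fold above female brain, at least 182-fold above male brain, at least 109.6-fold above ovary and at least 109.4-fold above testis. A looser bound allows every one of the 9 forms to lie just under the listing minimum, which would sum to 72.3 RPM in female brain, 54.2 RPM in male brain, 90.04 RPM in ovary and 90.2 RPM in testis. Even so, the summed level of these 9 forms in female liver was at least 25.2-fold above female brain and 33.6-fold above male brain. It was at least 20.2-fold above each of ovary and testis. Other matching forms that no library listed are outside this bound. These bounds reflect where each list ends, so their order over the organs says nothing about which organ holds more miR-122-5p. As shares of miRNA RPM, the bound on form 1 was at least 1721-fold against female brain, 2085-fold against male brain, 141-fold against ovary and 91.1-fold against testis.

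**Figure D1:**
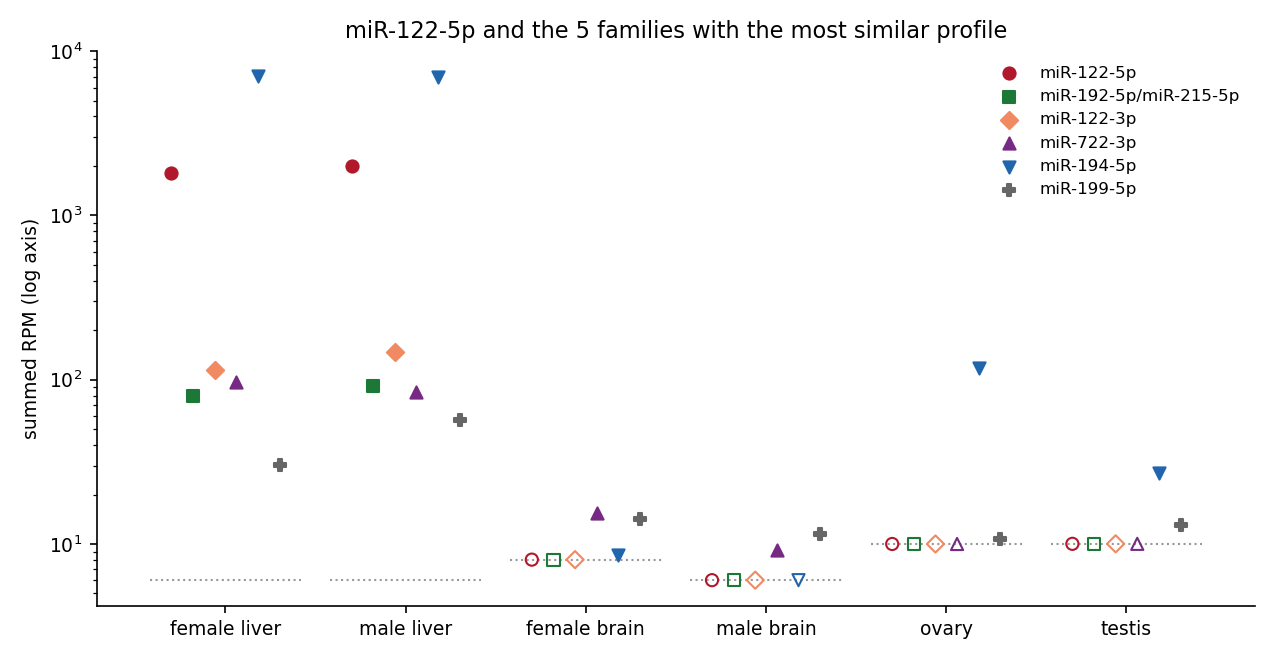
Summed RPM (log axis) of miR-122-5p and the 5 families whose profile over the 6 libraries was most like it. Filled symbols are listed values, open symbols are families not listed and drawn at the listing minimum, and dotted lines mark that minimum in each library; miR-122-5p, miR-122-3p and miR-192-5p/miR-215-5p are filled in the 2 livers and open in the other 4 libraries.

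The organ comparisons were tested with limma on log2(RPM + 1) over all families, after values under 10.03 RPM, the highest listing minimum, had been raised to it. The resulting fold is therefore set in part by that minimum and is no bound. MiR-122-5p was unlisted in all brain and gonad libraries, which were thus all set to the minimum. The positive sign of its folds was fixed beforehand, and its p-values are no evidence of that sign. Against brain, miR-122-5p in liver had a log2 fold of 7.44 ± 0.10 (SE; limma, Benjamini-Hochberg adjusted p = 8.45e-05). It was 1 of 7 families called higher in liver among 110 tested (6.36%), and its fold was exceeded by that of miR-194-5p alone. The median log2 fold over all 110 families was -2.55, and 81 were called lower in liver. With RPM scaled to miRNA reads 81 families were tested and the median was -0.07. With median-of-ratios scaling 90 were tested and it was -0.45, so these medians differ from the first in families as well as in scale. The log2 fold of miR-122-5p was 7.20 and 7.49 on these 2 scales. On each of the 3 scales miR-122-5p held rank 2 by fold, behind miR-194-5p.

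Against the gonads the log2 fold of miR-122-5p was again 7.44 ± 0.11 (limma, adjusted p = 2.24e-05), the largest of 115 families tested. With log2(RPM + 10), and when ovary was left out, miR-122-5p instead held rank 2; without ovary miR-194-5p had 7.97, against 7.44 for miR-122-5p. The fold equals that against brain because all 4 libraries without miR-122-5p were set to the same minimum. It was 1 of 9 families called higher in liver (7.83%). The median log2 fold here was 0, and 11 families were called lower. Families above the minimum only in brain were among the 115 and could have no fold but 0. In the 4 liver and gonad libraries alone 76 families were tested, with a median of -0.15, 8 called higher and 10 lower. The p-values set each difference against the spread between the libraries of an organ and not between fish, and libraries at the minimum show no spread of their own.

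MiR-122-3p followed the same pattern at a lower level. It summed to 114.5 RPM over 3 forms in female liver and to 147.6 RPM over 7 forms in male liver, and was not listed in brain, ovary or testis. Its log2 fold was 3.57 ± 0.17 against brain (limma, adjusted p = 6.41e-04) and 3.57 ± 0.16 against the gonads (limma, adjusted p = 4.80e-04). As for the 5p arm, all libraries without it were set to the minimum. The positive sign was thus fixed beforehand, and these p-values are no evidence of it. The 5p arm exceeded the 3p arm 15.9-fold in female liver (15.2 to 16.6) and 13.6-fold in male liver (13.1 to 14.2). Over the 3 forms listed in both livers, the 3p arm had 114.5 RPM in female liver and 112.5 RPM in male liver. The lower ratio in male liver thus rests on 3p forms that were not listed in female liver, where they count as 0. For the 7 families with both arms listed in both livers, miR-122 had the highest ratio of major to minor arm in each liver. Arms were summed by family, so a family with several hairpins gives their pooled ratio. The next was miR-30, with 13.7-fold in female liver and 12.6-fold in male liver, and the lowest were miR-148 with 2.14-fold in female liver and miR-100 with 1.55-fold in male liver. Families with an arm under the listing minimum could not enter, so the highest ratio among these 7 need not be the highest in liver. Let-7-5p, for example, had 1856 RPM in female liver and 1571 RPM in male liver, while let-7-3p was unlisted in both.

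The forms listed for the 3p arm differed between the livers mainly near the listing minimum. Forms 1, 2 and 3 had 40.4, 39.8 and 34.2 RPM in female liver, against 41.8, 37.0 and 33.7 RPM in male liver. Over these 3 forms the female over male ratio was 1.02 (0.958 to 1.08), an interval that includes 1. The other 4 forms had 13.3, 7.72, 7.66 and 6.48 RPM in male liver and lay under 6.03 RPM in female liver. With them the ratio of the sums was 0.776 (0.733 to 0.821), a value in which forms of female liver under the minimum count as 0. In male liver 53.4% of the 3p arm started at the base of form 1, and 32.4% started 1 nt, 9.002% 2 nt and 5.19% 3 nt upstream of it. In female liver the forms listed had 70.1% at the start of form 1 and 29.9% 1 nt upstream.

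Summed over its forms, miR-122-5p was 0.906 times as high in female as in male liver (exact conditional binomial interval 0.893 to 0.920). With 1 library per sex there is no test of sex, and the interval covers counting error of these libraries alone. Among 38 families that reached 50 RPM in at least 1 liver, 22 were past 1.5-fold in either direction (57.9%), and miR-122-5p was not among them. Ratios over the 38 families ran from 0.191 for miR-221-3p to 1.94 for miR-148-5p with a median of 0.742. Of these families, 22 had a lower ratio than miR-122-5p and 5 had one closer to 1. The direction, the distance from 1 and the 1.5-fold call depended on the scale, whereas the order of the families did not. With RPM scaled to miRNA reads the ratio of miR-122-5p was 0.984 (0.969 to 0.998). With median-of-ratios scaling it was 1.80 (1.78 to 1.83), higher in female liver. On this last scale miR-122-5p was past 1.5-fold, as were 24 of the 38 families (63.2%), and 18 had a ratio closer to 1. The median ratio was then 1.48, and again 22 families had a lower ratio than miR-122-5p. Median-of-ratios scaling takes its factors from 40 families listed in all 6 libraries and sets them at 0.326 for female liver and 0.650 for male liver.

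**Figure D2:**
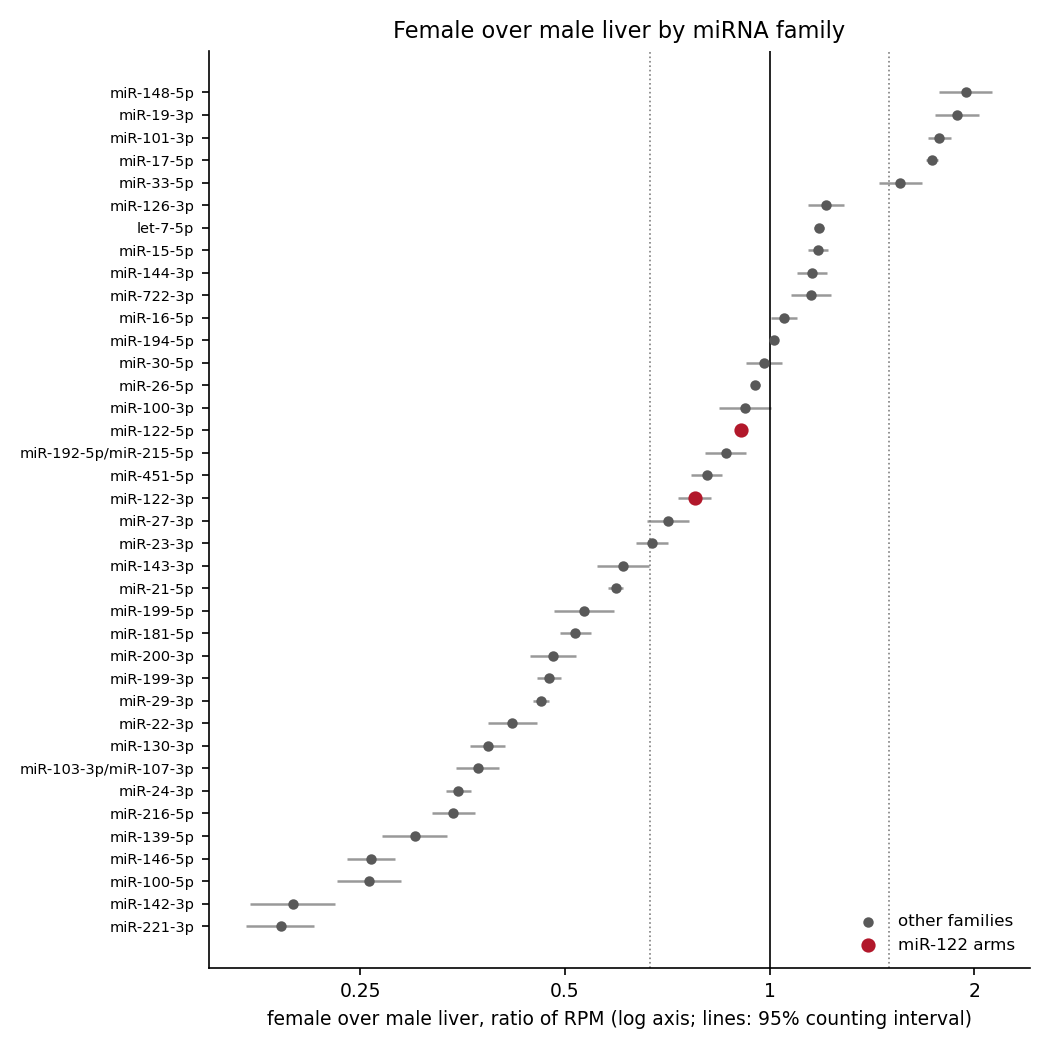
Ratio of RPM in female over male liver (log axis) for the 38 families that reached 50 RPM in at least 1 liver; points are ratios, lines are 95% counting intervals, dotted lines mark 1.5-fold in each direction, and red points are the arms of miR-122. On the deposited scale drawn here, miR-122-5p at 0.906 lies inside the 1.5-fold lines and above the median of 0.742; with median-of-ratios scaling it would lie at 1.80, outside them.

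By exact sequence, the forms differed in their female over male ratio. Another scale multiplies all of these ratios by the same factor, so how they compare with each other does not depend on it, whereas the side of 1 on which a ratio lies does. Form 1, the dominant sequence, held 60.2% of miR-122-5p in female liver (Wilson interval 59.7 to 60.7) and 63.1% in male liver (62.6 to 63.5), and its RPM ratio was 0.865 (0.849 to 0.881). Form 2, shorter by 1 nt at the 3′ end, had 224 RPM in female liver and 199.6 RPM in male liver, a ratio of 1.12 (1.07 to 1.17). Form 3, longer by a 3′ T, had 217 RPM in female liver and 203 RPM in male liver, a ratio of 1.07 (1.02 to 1.12). Forms 2 and 3 were thus slightly higher in female liver where form 1 was lower.

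Form 4, shorter by 2 nt, had 149 RPM in female liver and 140.5 RPM in male liver, with a ratio of 1.06 (1.003 to 1.12). Form 5, with a 3′ A, had 93.6 RPM in female liver and 91.2 RPM in male liver, and its ratio of 1.03 (0.960 to 1.10) had an interval that includes 1. Form 7, with a 3′ G, had 24.7 RPM in female liver and 39.98 RPM in male liver, a ratio of 0.618 (0.549 to 0.695). Of the 7 forms listed in both livers, the 2 rarest, form 7 and the shifted form 6, thus had ratios furthest from that of the sum.

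The forms with the shifted seed took a larger share of miR-122-5p in male liver, a comparison that does not depend on the scale. Form 6 had 18.5 RPM in female liver and 51.7 RPM in male liver, a ratio of 0.358 (0.316 to 0.406). Form 8 had 9.91 RPM and form 9 had 7.29 RPM in male liver, and both lay under 6.03 RPM in female liver. On the deposited scale male liver was thus at least 1.64-fold higher for form 8 and at least 1.21-fold higher for form 9. The ratio of form 6 and these bounds, unlike the shares, depend on the scale. Together the shifted forms made up 1.02% of miR-122-5p in female liver (0.916 to 1.13) and 3.42% in male liver (3.24 to 3.61), which is 3.37-fold more in male liver. Over the forms listed in both livers alone, where form 6 is the only shifted one, its shares were 1.02% in female liver and 2.59% in male liver. This is 2.55-fold more in male liver. Nearly all of miR-122-5p kept the seed GGAGTGT, with 98.98% in female liver and 96.6% in male liver.

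**Figure D3:**
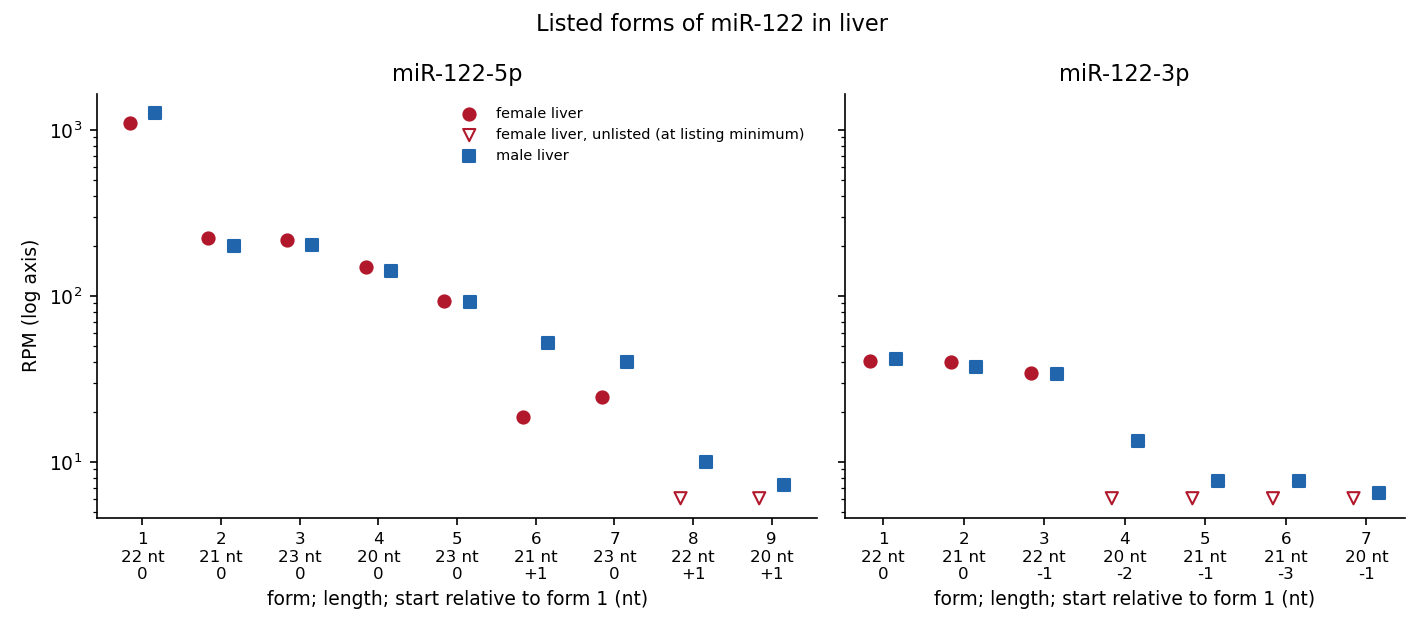
RPM (log axis) of each listed form of miR-122-5p (left) and miR-122-3p (right) in female liver (circles) and male liver (squares); open triangles mark forms not listed in female liver, drawn at its listing minimum, and the labels give form, length and start relative to form 1. Forms 1 to 5 of the 5p arm lie close together in the 2 livers, whereas the shifted form 6 lies at 18.5 RPM in female liver and 51.7 RPM in male liver.

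Other families were examined for the same feature. In 10 families with at least 200 RPM in both livers, the share of RPM at a start other than the main one was higher in male liver in 7, lower in 0 and equal, at 0 in both livers, in 3. Counting forms listed in both livers alone, it was higher in male liver in 5, lower in 0 and equal in 5. For miR-101-3p the share was 33.1% in female liver and 39.2% in male liver. For let-7-5p it was 2.04% in female liver and 3.78% in male liver, and for miR-194-5p 1.17% in female liver and 2.13% in male liver. For miR-29-3p no shifted form was listed in female liver, and 2.84% was shifted in male liver. The medians over the 10 families were 0.387% in female liver and 1.68% in male liver. MiR-122-5p, with a gap of 2.41 percentage points, held rank 3 of the 10, so a larger share of shifted starts in male liver was a feature it had in common with other families.

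**Figure D4:**
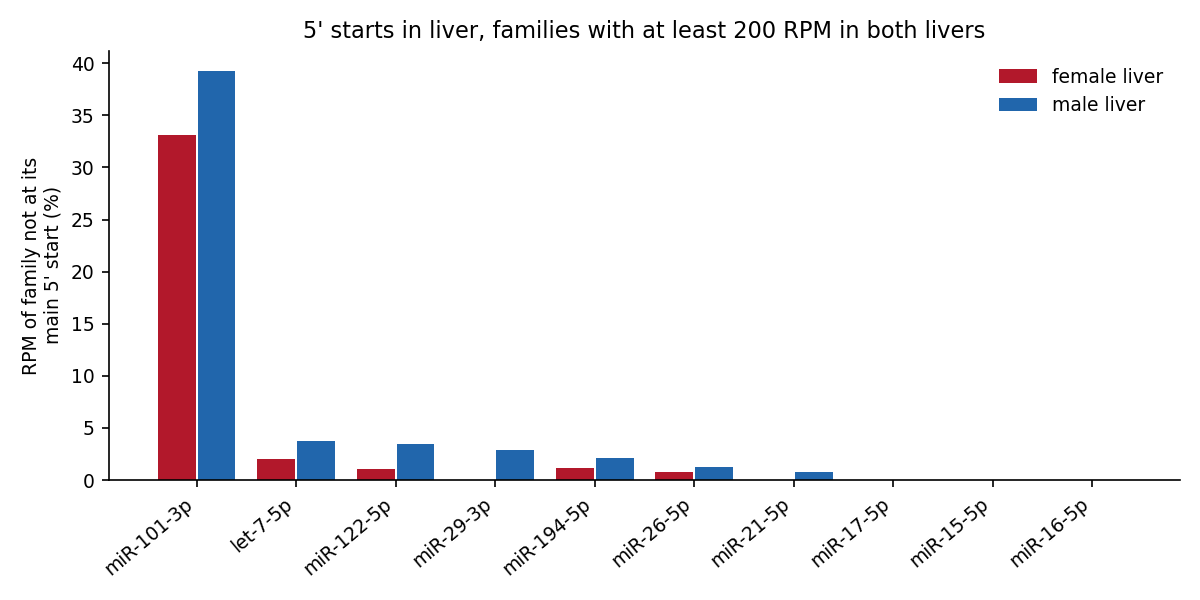
Share of each family's RPM (%) that does not start at its main 5′ end, in female liver (left bars) and male liver (right bars), for the 10 families with at least 200 RPM in both livers. MiR-122-5p stands at 1.02% in female liver and 3.42% in male liver, and no family shows a lower bar in male than in female liver.

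Lengths of miR-122-5p differed between the livers by a few percentage points at most, although the counting intervals did not overlap at any length. Sequences of 22 nt made up 60.2% in female liver and 63.5% in male liver (63.06 to 64.03). Those of 23 nt made up 18.4% in female liver (17.98 to 18.80) and 16.6% in male liver (16.2 to 16.99). At 21 nt the shares were 13.3% in female liver (12.9 to 13.7) and 12.5% in male liver (12.2 to 12.8), and at 20 nt they were 8.15% in female liver (7.87 to 8.45) and 7.35% in male liver (7.09 to 7.61). The mean length was 21.89 nt in each liver. The lists hold no sequence under 20 or over 23 nt, so longer or shorter forms are not in these shares.

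At the 3′ end, the end of form 1 was the most used in both livers, with 61.2% of miR-122-5p in female liver and 65.6% in male liver. Ends 1 nt longer held 18.4% in female liver and 17.1% in male liver, ends 1 nt shorter 12.3% in female liver and 10.3% in male liver, and ends 2 nt shorter 8.15% in female liver and 6.98% in male liver. The added base of the 23-nt forms was T in 64.7% of reads in female liver (63.5 to 65.9) and 60.7% in male liver (59.5 to 61.9). It was A in 27.9% in female liver (26.8 to 29.1) and 27.3% in male liver (26.2 to 28.4), and G in 7.37% in female liver (6.76 to 8.04) and 11.96% in male liver (11.2 to 12.8). No 23-nt form with a C was listed. The share of G was the one of the 3 that was higher in male liver.

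The forms of miR-122-5p were also set beside those of the other abundant families. The part of a family's RPM that would have to move between forms to turn one liver's profile into the other's was 5.93 percentage points for miR-122-5p. Over the 10 families its median was 10.6 points and its range 1.58 to 16.3 points, and miR-122-5p ranked 8 from the highest. MiR-122-5p was also more concentrated in 1 form than most, with 60.2% in female liver and 63.1% in male liver for form 1. The medians were 43.7% in female liver and 39.5% in male liver. Sequences were summed by family, so a family with several hairpins pools their forms and is not a like unit. Let-7-5p, for example, had 29 forms in female liver and 25 in male liver. MiR-194-5p had the highest share in its top form, with 92.4% in female liver and 93.0% in male liver.

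The 5 families with a profile most like that of miR-122-5p were taken from 92 families with at least 50 RPM in a library, by Pearson's r of log2 RPM, raised to the highest listing minimum, over the 6 libraries. All share the same libraries and scaling, and r is given as a description. MiR-122-5p lay at that minimum in every library but the livers. A family above the minimum in both livers and at or near it elsewhere therefore reaches a high r whatever its level. MiR-192-5p/miR-215-5p, known in mammals from epithelia of liver, gut and kidney, came first with r = 0.9995. It had 79.3 RPM in female liver and 92.0 RPM in male liver and was not listed elsewhere. MiR-122-3p came next with r = 0.999. MiR-722-3p, a fish miRNA known from zebrafish neutrophils, had r = 0.987, with 97.1 RPM in female liver and 84.3 RPM in male liver, against 15.4 RPM in female brain and 9.24 RPM in male brain.

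MiR-194-5p had r = 0.956. Its levels were 7055 RPM in female liver and 6962 RPM in male liver, against 8.61 RPM in female brain, 117.3 RPM in ovary and 26.9 RPM in testis, and it was not listed in male brain. MiR-199-5p, a miRNA of mesenchymal cells in mammals, had r = 0.946, with 30.4 RPM in female liver and 57.0 RPM in male liver. Elsewhere it had 14.3 RPM in female brain, 11.6 RPM in male brain, 10.7 RPM in ovary and 13.04 RPM in testis. Its more abundant other arm, miR-199-3p, had r = 0.635, with 189 RPM in female liver and 399 RPM in male liver. That arm had 176 RPM in female brain, 130 RPM in male brain, 226 RPM in ovary and 174 RPM in testis.

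A list of 13 families was set beside miR-122-5p, which it includes. Most are known from liver or its metabolism, whereas miR-722-3p was put on the list with its level in these livers known. Together they made up 57.0% of miRNA RPM in female liver and 54.3% in male liver, against 4.46% in female brain, 4.78% in male brain, 9.56% in ovary and 6.31% in testis. MiR-194-5p and miR-122-5p supplied 84.9% of the list's RPM in female liver and 83.01% in male liver. The other 11 families made up 8.58% of miRNA RPM in female liver and 9.22% in male liver, against 4.46% in female brain, 4.78% in male brain, 9.06% in ovary and 6.13% in testis, so the contrast of the sums with the gonads came from these 2 members. The list was drawn up with earlier results of these libraries known and is no independent evidence of a direction. Against the gonads 8 of the 13 were called higher in liver and 0 lower (limma, adjusted p under 0.05), where over all 115 families 7.83% were called higher and 9.57% lower. The median log2 fold of the list was 2.97, against 0 over all 115 families. Families above the minimum only in brain were among the 115, with a fold fixed at 0 and no call possible. In the 4 liver and gonad libraries alone the median was -0.15 over 76 families, with 8 called higher and 10 lower. At an unadjusted p under 0.05 the number lower was also 0. Members unlisted in both gonads, named below, could not be called lower, so for them this was fixed beforehand. The 8 stayed higher and past the threshold on both other scales.

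Beside both arms of miR-122, the 8 included miR-194-5p (log2 fold 6.93 ± 0.73, SE) and miR-192-5p/miR-215-5p (2.97 ± 0.12). The log2 fold was 4.69 ± 0.31 for miR-101-3p and 3.05 ± 0.23 for miR-722-3p. It was 3.04 ± 0.51 for miR-103-3p/miR-107-3p and 2.85 ± 0.25 for miR-33-5p. MiR-33-5p lies in an intron of the sterol regulator gene SREBF2 in mammals, and miR-103-3p/miR-107-3p in introns of pantothenate kinase genes. MiR-148-3p, which targets the LDL receptor in mammals, had 1.25 ± 0.37 and missed the threshold (limma, adjusted p = 0.111). The other 4, miR-148-5p, miR-30-5p, miR-21-5p and miR-22-3p, also missed it, with log2 folds between -0.98 and 1.66. Both arms of miR-122, miR-192-5p/miR-215-5p, miR-722-3p, miR-101-3p, miR-103-3p/miR-107-3p and miR-148-3p were unlisted in both gonads and set to the minimum there. Their folds could therefore not be negative, and leaving out ovary or testis could not change them. When libraries were left out in turn, 5 of the 8 kept their call each time: both arms of miR-122, miR-192-5p/miR-215-5p, miR-722-3p and miR-101-3p. MiR-194-5p missed the threshold without female liver, female brain or male brain (limma, adjusted p from 0.0529 to 0.0799), with log2 folds of 6.92 to 6.93. MiR-33-5p missed it without male brain (limma, adjusted p = 0.0532), and miR-103-3p/miR-107-3p without female brain, male brain, ovary or testis (limma, adjusted p from 0.117 to 0.173).

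Against brain, as deposited, 6 of the 13 were called higher in liver and 6 lower. Over all 110 families 6.36% were called higher and 73.6% lower. The median log2 fold of the list was 1.07, against -2.55 over all 110 families. The 6 higher were both arms of miR-122 and 4 others. Their log2 folds were 9.31 ± 0.08 for miR-194-5p, 2.97 ± 0.12 for miR-192-5p/miR-215-5p, 2.77 ± 0.26 for miR-722-3p and 1.89 ± 0.53 for miR-148-5p. Both arms of miR-122, miR-192-5p/miR-215-5p and miR-194-5p were raised to the minimum in both brains. The folds of these families could therefore not be negative, and leaving out a brain library could not change them. All 6 stayed past the threshold when scaled to miRNA reads and 5 did with median-of-ratios scaling, where miR-148-5p missed it (limma, adjusted p = 0.0722). The 6 lower were miR-103-3p/miR-107-3p, miR-21-5p, miR-101-3p, miR-30-5p, miR-22-3p and miR-33-5p, with log2 folds between -4.19 and -0.95. Their direction was a matter of scale: 5 of the 6, all but miR-103-3p/miR-107-3p, had positive folds when scaled to miRNA reads, and 4 of the 6 with median-of-ratios scaling. When libraries were left out in turn, 5 of the 6 higher kept their call each time, while miR-148-5p lost it whichever of the 4 libraries was left out (limma, adjusted p from 0.0733 to 0.280). Of the 6 lower, miR-30-5p lost its call without female liver or without male liver, the other 5 did so without female brain or without male brain, and miR-33-5p also without male liver; all kept a negative sign.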

How the data were processed

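Per the labels' protocols, pooled tissue gave DNase-treated total RNA, from which gel-purified small RNA was turned into adapter-ligated, PCR-amplified libraries. CASAVA 1.7.0 is named in the submitters' processing notes. How reads were aligned and trimmed, and why lists end at a minimum, is not given in the sources used here. The deposited files list exact sequences of 20 to 23 nt with their lengths and 1 value each, taken here as RPM computed by the authors, since the headers name no unit and all values were whole multiples of 1 read within 0.002 reads. The totals so implied (18.7 M to 25.5 M reads) served for depth and counting intervals alone.

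Of 1571 sequences, 1082 were assigned to 118 family arms with 199 hand-written references; 3 of these came in only once the unassigned sequences were known. The most abundant sequence with the seed GGAGTGT was the miR-122-5p reference. RPM were summed per family arm. Families were tested with limma 3.58.1 (R 4.3.3; pseudocount 1, two-sided, threshold 0.05), for brain on 4 libraries and for the gonads on all 6. Duplexes were folded with ViennaRNA 2.7.2. Scripts were tested on simulated data. For limma these had no listing minimum and the same spread in every library, so fits with libraries held at a minimum were not covered. Unlisted sequences count as 0 in sums. No file held raw counts, so no count model was used. The families named were both arms of miR-122, the 5 most alike in profile, the members of the liver list and the neighbours in rank. Families quoted as the ends of a range, those of other-start shares and miR-199-3p were named after their values were seen. The members, lists and tests were chosen with earlier results of these data known. The alternatives tried were matching, listing minimum, scaling, pseudocount, filter, sex as a block, libraries in the fit and leaving out each library.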

Additional observations from a re-analysis of the deposited data

How the results depend on the processing

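The log2 fold of miR-122-5p was 6.59 to 10.90 over the fits tried, both against brain and against the gonads. It was 7.37 to 7.51 in both comparisons when a library was left out, where a lone library is assumed to vary like those of the other organs. In the other fits the adjusted p ran from 4.04e-06 to 0.00107 against brain and from 5.34e-06 to 0.00216 against the gonads (limma). Every fit set the libraries without miR-122-5p to 1 value, the minimum or 0. The positive sign was therefore fixed beforehand, and these fits are no independent check of it. The SE depended on the libraries in the fit: against the gonads it was 0.11 with all 6 libraries and 0.31 with the 4 liver and gonad libraries alone. With sex as a block the adjusted p was 0.00107 against brain and 8.79e-04 against the gonads. Allowing no mismatch changed no value. The share of miRNA RPM was 9.83% in female liver and 9.75% in male liver with the start of form 1 alone, and 10.19% in female liver and 10.28% in male liver with sequences at or above the highest listing minimum. Of all listed sequences it was 7.25% in female liver and 8.07% in male liver. The female over male ratio was 0.929 with the start of form 1 alone and 0.984 on the scale of miRNA reads, and it turned round to 1.80 on that of median-of-ratios factors; the cause was not tested. Form 1 held 60.8% in female liver and 65.3% in male liver of sequences with its start, and 63.6% in male liver over forms listed in both livers or at or above the highest minimum, where the shifted share was 2.59%. Restricting to forms listed in both livers was chosen after seeing the data. The counts over all families moved with scale. Against brain, 22 were higher and 31 lower of 81 tested per miRNA read. Median-of-ratios factors gave 13 higher and 40 lower of 90 tested, against 7 and 81 of 110 tested as deposited. The families tested thus changed along with the scale. Against the gonads, 5 were higher without male brain and 17 lower without testis, against 9 and 11 with all libraries. Listing minima of 112 reads and more limit what can be said of rare forms and of the organs where none was listed.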
